A study of Rattus norvegicus with 15 samples.

Results

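The middle segment of the rat Achilles tendon was compared with the distal segment, the end toward the heel bone, within the same animals. The comparison used 10 of the 15 libraries of the study: those the labels assign to the middle or the distal region, 5 of each, paired by the rat that gave both segments. All animals were healthy, untreated males of the Sprague-Dawley strain, 8 weeks old. The tendons were cut out between the muscle-tendon junction and the insertion and divided into 3 segments of equal length, and the matching segments of both limbs were combined before RNA isolation, so that 1 library stands for both hind limbs of 1 rat. The insertion itself was left out by the dissection, per the labels' protocols. The proximal libraries, also 5, entered the model as another region, and their values are given only where they place a gene of this comparison along the tendon.

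Tendon joins muscle to bone. The midsubstance consists mainly of parallel collagen fibres laid down by tenocytes, which are spindle-shaped fibroblasts. Toward the bone many tendons, the Achilles tendon among them, bear compression against the heel and become fibrocartilaginous, with rounder cells and a matrix rich in proteoglycan and cartilage collagen. Which genes differ between the middle and the distal segment is the question the comparison addresses. Whether the distal segment, cut without the insertion, held fibrocartilage was not checked.

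Genes are given by Ensembl identifier only. The deposited table carries no symbols, and 0 of its 32883 identifiers could be paired with a symbol in the gene table used here. No tendon, cartilage, muscle or other marker could therefore be looked up, the labelled tissue was not checked against markers, and no function or sequence is given for any gene.

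Distal libraries held 23530376 to 30178952 gene counts and middle libraries 18866801 to 27817554. The middle library was the shallower one in 4 of 5 rats, with a mean difference of -2199120 ± 4071005 counts (SD, n = 5; p = 0.312, two-sided exact permutation of the pair labels, where 5 pairs cannot give less than 0.0625). The middle library of rat 5 stood apart from the other middle libraries: its root-mean-square distance from their mean over all tested genes was 0.745 log2 units, against 0.445 to 0.521 for the other 4. The count of called genes is given with and without it. Levels are given as CPM, the counts of a gene scaled to the size of the library.

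Of 15037 genes tested, 3731 (24.8%) differed between both segments (edgeR's quasi-likelihood test blocked on the rat, Benjamini-Hochberg adjusted p under 0.05). Those higher in the middle numbered 1986 (13.2%) and those lower 1745 (11.6%). Most differences were modest. Of these, 577 (3.84% of all tested) were higher and 470 (3.13%) lower by 2-fold or more, 85 higher and 109 lower by 4-fold or more, and 7 higher and 10 lower by 16-fold or more. Segments are mixtures of cells, and a lower level may mean fewer cells of a type or less RNA per cell, which cannot be told apart here. The split between directions depended on the settings. Without TMM scaling, 67.2% of the calls were higher in the middle in place of 53.2%, and the median log2 fold change of all genes was 0.12 in place of 0.01. The order turned, with more lower than higher genes, with no filter on low counts (1551 higher, 1708 lower), without rat 1 (1366 and 1425), without rat 4 (907 and 942), without the distal library of rat 1 (1608 and 1633) or rat 4 (1081 and 1185), and without the middle libraries of rats 1 and 5 (865 and 1096). The count was 2917 without the middle library of rat 5 and 1961 without the middle libraries of rats 1 and 5.

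**Figure D1:**
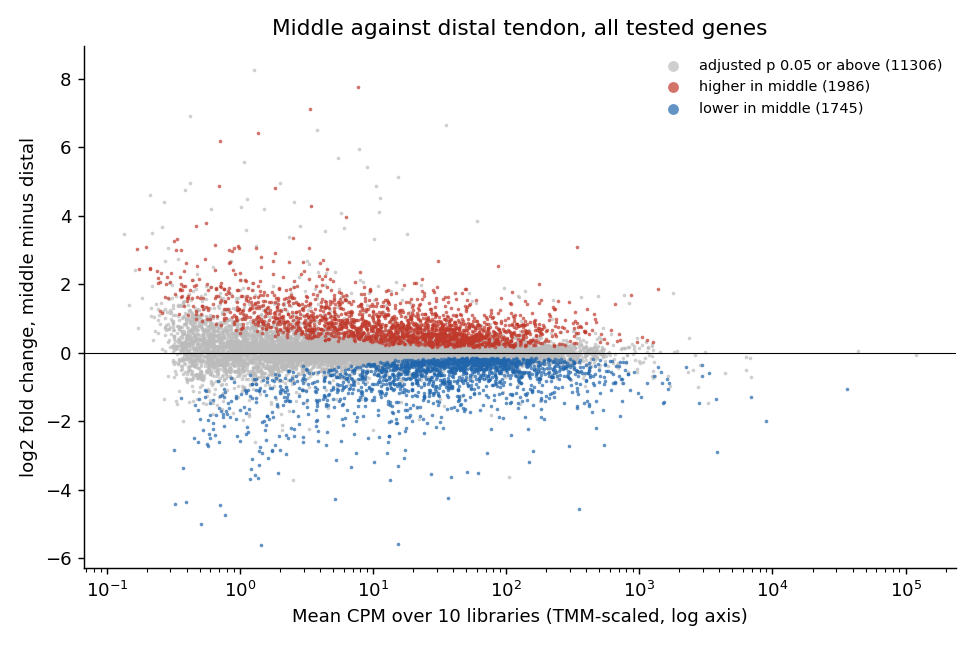
Log2 fold change from distal to middle tendon (vertical axis) against mean CPM over the 10 libraries (log axis), 1 point per tested gene, coloured where the adjusted p was under 0.05. Genes higher in the middle (1986) lie mostly at low and moderate levels, and most coloured points at 1000 CPM or more lie below 0.

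The separation of the groups was also counted without the pairing. In 743 genes (4.94% of those tested) all 5 middle libraries lay above all 5 distal libraries, and in 1127 genes (7.49%) all 5 lay below. Of the 1986 genes called higher, 641 had no overlap between regions, and of the 1745 called lower, 1003 had none. At 4-fold or more the corresponding numbers were 56 of 85 higher and 89 of 109 lower genes. The within-rat difference had 1 sign in all 5 rats for 1787 of the called higher genes and 1616 of the called lower genes. Over all tested genes this held for 5244 (34.9%). The calls were made on these same differences, so the larger share among them describes the calls and is no test of them.

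Differences of an all-or-none kind were few. Only 14 genes were under 1 CPM in every distal library and at least 1 CPM in every middle library, and 15 genes showed the opposite. With at least 5 CPM required in every library of the higher region, 0 genes remained in either direction.

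The direction of the differences changed with the level of the gene. Among 64 genes averaging 1000 CPM or more, 21 were lower and 4 higher in the middle (39.1% called, against 24.8% of all genes), and 10 of the lower genes fell by at least 2-fold. Among 1652 genes at 100 to 1000 CPM, 357 were lower and 202 higher. Among 7728 genes at 10 to 100 CPM, the directions were nearly even, at 1014 lower and 1019 higher. Below that level the order was the opposite: of 4146 genes at 1 to 10 CPM, 624 were higher and 298 lower, and of 1447 genes under 1 CPM, 137 were higher and 55 lower. Without TMM scaling the genes at 1000 CPM or more were still mostly lower in the middle (22 lower, 2 higher), and those at 100 to 1000 CPM were nearly even (229 lower, 206 higher), while those at 10 to 100 CPM became mostly higher (475 lower, 986 higher). Fewer genes at low levels can be called at a given depth, and 13.3% of the genes under 1 CPM passed the test. The filter on low counts used all 15 libraries, so a gene at a low level in these segments could enter by its proximal counts. With no such filter 1551 genes of all levels were higher and 1708 lower, and the level classes were not counted under another filter.

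Weighed by counts, the genes called lower in the middle changed more in share than those called higher. Shares sum to the whole library, so genes that were not called took up the rest. The 1745 genes lower in the middle took 27.0 ± 1.63% of the counts of distal libraries (SD, n = 5), 16.7 ± 1.64% of middle libraries and 13.9 ± 1.08% of proximal libraries. Every distal library (24.5 to 28.5%) lay above every middle library (15.3 to 19.2%). The 1986 genes higher in the middle took 5.63 to 7.52% of the counts of distal libraries, 8.35 to 14.9% of middle libraries and 8.14 to 14.9% of proximal libraries. Here too the distal and middle libraries did not overlap. These genes were called in the same distal and middle libraries, so these shares describe the calls and are no test of them.

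**Figure D2:**
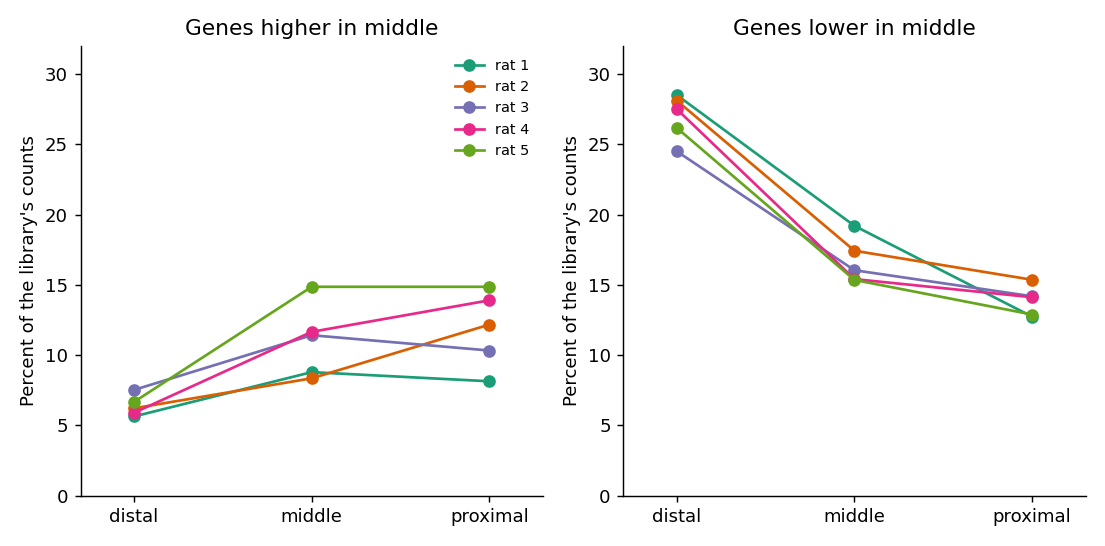
Percent of each library's counts taken by the genes called higher (left) and lower (right) in the middle than in the distal segment, with 1 line per rat from distal through middle to proximal. The lower genes drop from 24.5 to 28.5% in distal to 15.3 to 19.2% in middle libraries, and the middle library of rat 5 has the highest middle share of the higher genes, 14.9%.

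Among the lower genes were a few very abundant ones. The 10 genes with the highest mean share over the 10 libraries are described here by rank. The gene of rank 3 took 4.55 ± 0.379% of distal counts and 2.47 ± 0.758% of middle counts (SD, n = 5). By rat it went from 5.16 to 3.08%, from 4.67 to 2.95%, from 4.37 to 2.79%, from 4.27 to 2.33% and from 4.27 to 1.21% in rats 1 to 5. It was lower in the middle in 5 of 5 rats without overlap of the regions, and edgeR gave -1.06 ± 0.23 on the log2 scale (SE, adjusted p = 0.00803). This standard error and those that follow are approximate, since they were derived from the test statistic, and do not measure the spread between rats.

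The gene of rank 4 changed more. It took 1.34 ± 0.157% of distal and 0.381 ± 0.182% of middle counts (SD, n = 5), and 0.224 ± 0.0721% in the proximal segment. Its distal shares were 1.30, 1.54, 1.38, 1.38 and 1.11% in rats 1 to 5, and its middle shares 0.686, 0.365, 0.275, 0.214 and 0.363%. The regions did not overlap, and rat 1 kept the most in the middle. The fitted change was -2.01 ± 0.27 on the log2 scale (SE, adjusted p from edgeR 0.00111).

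The gene of rank 6 was the only other one of the 10 to pass the test, with 0.869 ± 0.144% of distal and 0.439 ± 0.205% of middle counts (SD, n = 5; log2 change -1.28 ± 0.33, SE, adjusted p from edgeR 0.0160). All 5 rats had less of it in the middle. The gene of rank 10 was also lower in 5 of 5 rats but did not pass (log2 change -0.58 ± 0.20, SE, adjusted p from edgeR 0.0529).

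The most abundant gene behaved differently. Its share was 9.72 to 12.2% in the distal libraries. In the middle it was 13.5, 17.1, 13.4 and 12.8% in rats 1 to 4 and 4.74% in rat 5. It was thus higher in the middle in 4 rats and lower in 1, and the fitted log2 change was -0.06 ± 0.38 (SE, adjusted p from edgeR 0.926). The gene of rank 2 had the same arrangement, with 4.68 to 5.64% in the middle of rats 1 to 4 and 2.72% in that of rat 5, against 3.54 to 4.09% in distal libraries (edgeR adjusted p = 0.908). Together the 10 genes took 23.4 to 25.5% of distal counts and 23.0 to 30.4% of the middle counts of rats 1 to 4, but 10.8% in the middle of rat 5. The proximal library of rat 5 was low too, with 9.32% for the 10 genes and 4.25% for the most abundant one. Proximal values of rat 4 were 14.4 and 7.76%, and those of rats 1 to 3 were 22.4 to 35.6% and 12.5 to 23.3%.

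**Figure D3:**
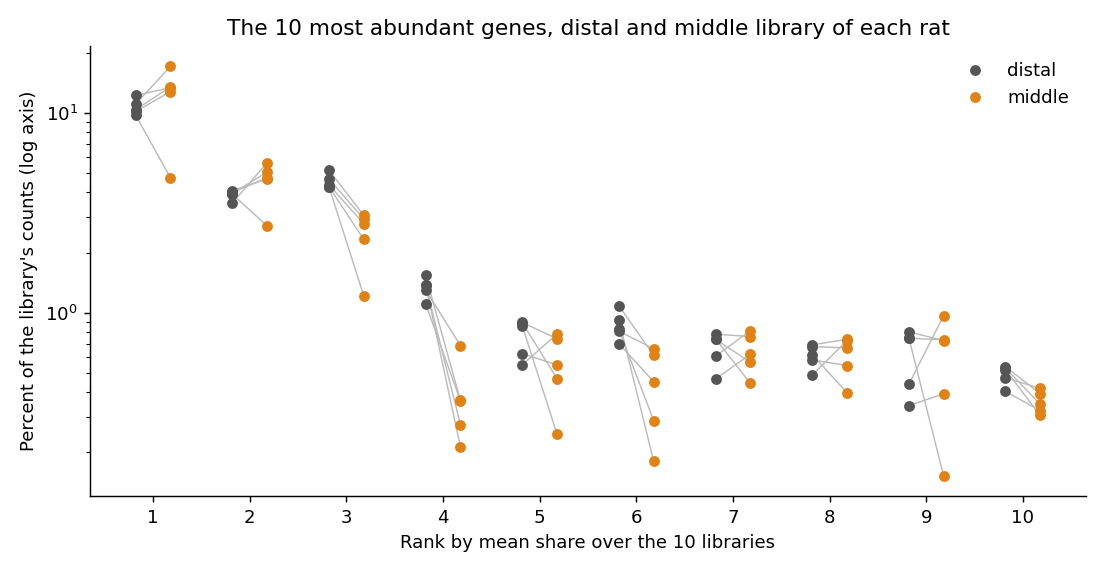
Percent of each library's counts (log axis) taken by the 10 most abundant genes, ordered by rank, with distal (grey) and middle (orange) libraries of the same rat joined by a line. Ranks 3, 4 and 6 fall in all 5 rats, while ranks 1 and 2 rise in 4 rats and fall in rat 5.

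Turning to single genes with steep differences, 2 genes are named in each direction. They have the largest log2 fold change among called genes with a mean of at least 1 log2 CPM and the same sign in all 5 rats. This mean was taken over all 15 libraries, so proximal levels count toward it. ENSRNOG00000061160 stood at 557, 832, 548, 812 and 401 CPM in the distal segments of rats 1 to 5. In the middle segments it stood at 239, 2.41, 3.48, 4.09 and 113 CPM. All middle values lay below all distal values, but the rats fell into unlike sizes of difference: rats 2, 3 and 4 were near the proximal level of 2.62 ± 0.734 CPM (SD, n = 5), while rats 1 and 5 differed from their own distal segment by only -1.22 and -1.83 log2 units. The fitted log2 change was -4.58 ± 1.35 (SE, adjusted p from edgeR 0.0347), and the within-rat difference in log2 CPM -5.26 ± 3.44 (SD, n = 5). With the middle libraries of rats 1 and 5 left out, the fitted log2 change was -7.70, which follows from leaving out the libraries with the smallest differences in this gene and is no support for it. In 13 of 25 alternative settings the gene no longer passed, with adjusted p up to 0.125 (edgeR, without rat 4).

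ENSRNOG00000004278 had the same order of rats at a lower level. Its distal values were 55.5, 97.3, 56.3, 76.1 and 43.8 CPM in rats 1 to 5, and its middle values 26.1, 0.208, 0.680, 0.724 and 9.81 CPM. The regions did not overlap, and again the middle segments of rats 1 and 5 were far above those of the other rats. The middle values of rats 2, 3 and 4 rest on 5, 16 and 17 counts. The fitted log2 change was -4.23 ± 1.03 (SE, adjusted p from edgeR 0.0156), with a within-rat difference of -4.87 ± 3.10 (SD, n = 5). The fitted log2 change was -7.13 without the middle libraries of rats 1 and 5, again those with its smallest differences, which adds no support. The gene did not pass without rat 4 (edgeR adjusted p = 0.0820) or without the distal library of rat 4 (edgeR adjusted p = 0.0577).

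In the other direction, ENSRNOG00000009345 was at 0.184, 0.495, 1.11, 0.681 and 0.484 CPM in the distal segments of rats 1 to 5, from 74 counts in all. In the middle it was at 1.17, 16.5, 3.99, 32.7 and 5.23 CPM. Every middle value lay above every distal value, the lowest middle value by a small margin, and rats 4 and 2 were the highest. In the proximal segment it ranged from 3.05 CPM in rat 5 to 96.4 CPM in rat 2. From distal to middle the fitted log2 change was 3.96 ± 1.03 (SE, adjusted p from edgeR 0.0213), and the within-rat difference 3.49 ± 1.59 (SD, n = 5). It did not pass in 6 of 25 alternative settings, with adjusted p up to 0.0876 (edgeR, without the distal library of rat 4).

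ENSRNOG00000025757 was at 0.414, 0.106, 0.632, 0.383 and 0.646 CPM in the distal segments of rats 1 to 5, from 53 counts in all. Its middle values were 1.43, 1.21, 1.23, 3.84 and 15.2 CPM. The regions did not overlap, and rat 5 was the highest in the middle. The proximal segments of rats 3, 5 and 4 were higher still, at 104, 87.9 and 25.5 CPM, while those of rats 1 and 2 were at 4.83 and 4.25 CPM. Its mean of 1.61 log2 CPM, by which it met the level rule, rests in large part on these proximal values. From distal to middle the fitted log2 change was 3.34 ± 0.81 (SE, adjusted p from edgeR 0.0149), and the within-rat difference 2.53 ± 1.36 (SD, n = 5). It did not pass in 7 of 25 alternative settings, among them without the middle library of rat 5 (log2 fold change 2.99, edgeR adjusted p = 0.0529), and its adjusted p was highest, 0.130 (edgeR), without the middle libraries of rats 1 and 5.

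**Figure D4:**
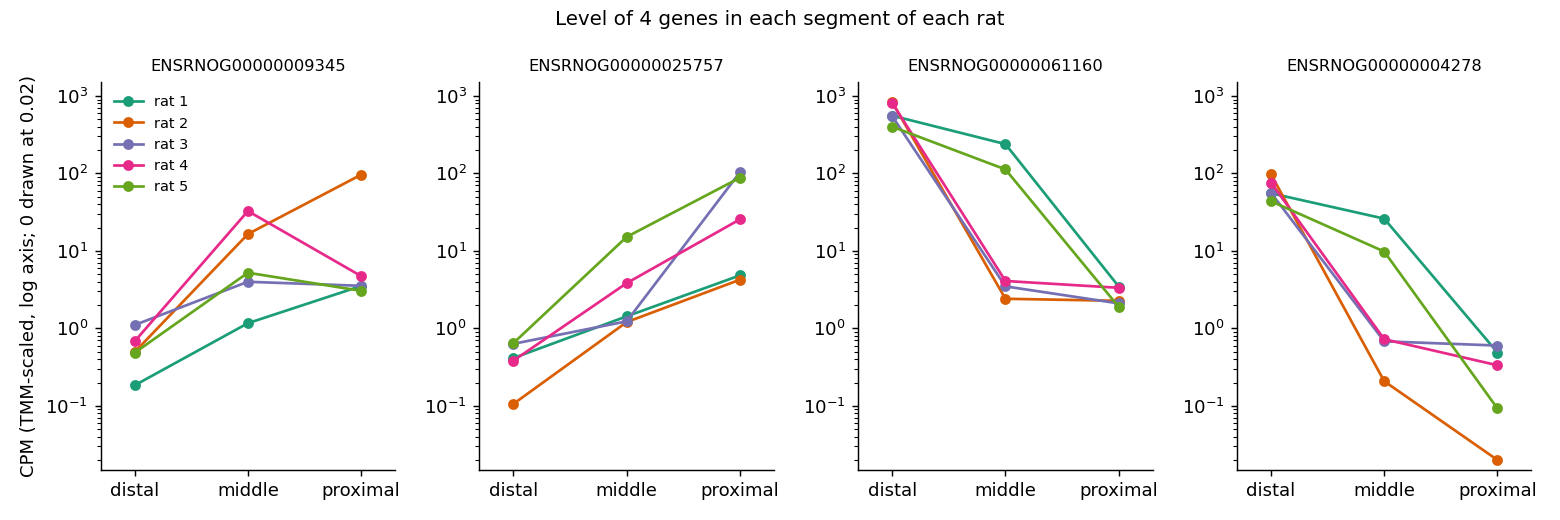
Level of the 4 named genes in CPM (log axis) in the distal, middle and proximal segment, with 1 line per rat. For ENSRNOG00000061160 and ENSRNOG00000004278 the middle segments of rats 1 and 5 lie between the distal level and the low level of rats 2, 3 and 4, and for ENSRNOG00000009345 and ENSRNOG00000025757 all middle segments lie above all distal ones.

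To read the differences in animals that had no part in calling the genes, the model was refitted without each rat in turn. The genes called in the other 4 rats were then read in the rat left out. The genes read also had to pass the filter on all 15 libraries, and their log2 CPM rest on the scaling of all libraries. To that extent the left-out rat had a part. Genes called higher in the middle had the same direction in the left-out rat for 87.6% of 1421 genes (rat 5) to 98.8% of 907 genes (rat 4). Genes called lower kept their direction for 92.6% of 1307 genes (rat 5) to 98.4% of 942 genes (rat 4). Over all genes tested, 49.6 to 52.9% were higher and 47.1 to 50.4% lower in the middle of the left-out rat. Among genes changed at least 2-fold in the other rats, 90.2 to 98.5% of the higher and 92.5 to 99.4% of the lower genes kept their direction.

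The size of the difference was less alike than its direction. For genes called lower by at least 2-fold, the median log2 difference in the left-out rat was -0.79 in rat 1, -1.08 in rat 2, -1.30 in rat 3, -1.94 in rat 4 and -1.61 in rat 5. The corresponding medians in the fits of the other 4 rats were -1.52, -1.48, -1.48, -1.41 and -1.45. The measures are unlike: the left-out value is a difference in log2 CPM, which the prior count of 2 makes smaller at low counts. The fitted values belong to genes chosen for being large in that same fit. A smaller left-out median is therefore not by itself a weaker difference in that rat. The lists differed between rats (523, 439, 411, 308 and 373 genes), so each rat is set against the other 4 on its own list and the rats are not ranked. Against the fit of the other 4 rats, the left-out median was smaller in size for rats 1, 2 and 3 and larger for rats 4 and 5. For genes called higher by at least 2-fold, the left-out medians were 1.11, 0.90, 0.81, 1.58 and 1.06 in rats 1 to 5, and the fits of the others gave 1.32, 1.41, 1.48, 1.36 and 1.38. On these lists (456, 505, 629, 273 and 427 genes) rat 4 was the only rat whose left-out median exceeded that of the other 4 rats in both directions.

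**Figure D5:**
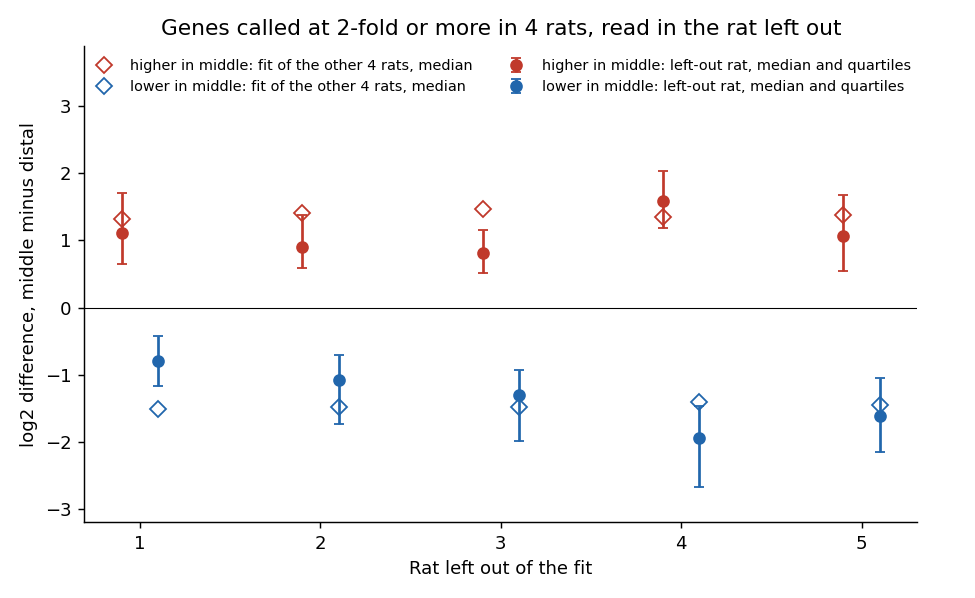
Log2 difference, middle minus distal, of genes called at 2-fold or more in 4 rats. Filled points give the median log2 CPM difference in the rat left out with its quartiles. Open diamonds give the median fold change in the fit of the other 4 rats, which is an unlike measure. The medians keep their sign in all 5 rats, from -0.79 (rat 1) to -1.94 (rat 4) for lower genes and from 0.81 (rat 3) to 1.58 (rat 4) for higher genes.

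For the steepest distal genes, the median differences of rats 1 and 5 were clearly smaller in size than the fitted changes of the other rats, again unlike measures. Of the genes at least 8-fold lower in the middle in the fit without rat 1 (50 genes, median log2 fold change -3.84), the middle segment of rat 1 had a median log2 difference of -1.32. Of the 37 genes so chosen without rat 5 (median -3.69), the median difference in rat 5 was -2.15. For the genes chosen without rats 2, 3 and 4 (25, 24 and 20 genes, medians -3.41, -3.43 and -3.40), the left-out rats stood at -3.42, -3.25 and -3.86. In CPM, the median of the 50 genes in rat 1 was 6.10 in distal and 2.26 in middle tendon, against 8.93 and 0.494 for the means of the other 4 rats. For the 37 genes in rat 5 the medians were 4.88 and 0.605, against 9.34 and 0.685. The median middle level of rat 5 was near the median of these means, and its distal level was lower. The means include rat 1 and can be raised by 1 high rat, so rat 5 was not set against rats 2, 3 and 4 alone. In both named lower genes the middle level of rat 5 was far above that of rats 2, 3 and 4. Direction was kept for 49 of the 50 genes in rat 1 and 36 of the 37 in rat 5.

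Among the 109 genes called lower by at least 4-fold with all rats, the smallest within-rat decrease was that of rat 1 for 61 genes, of rat 5 for 21, of rat 3 for 15, of rat 2 for 9 and of rat 4 for 3. The largest decrease was that of rat 4 for 49 genes. Among the 85 genes called higher by at least 4-fold, the largest increase was that of rat 4 for 37 genes, and the smallest was shared more evenly, with rats 1 and 3 at 25 genes each, rat 5 at 19, rat 2 at 12 and rat 4 at 4. Rat 1 thus had the smallest decrease for the most lower genes and, with rat 3, the smallest increase for the most higher genes. Over the 109 lower genes its median log2 difference was -1.43, against -2.92, -2.75, -3.26 and -2.25 in rats 2 to 5. Over the 85 higher genes it was 1.63, against 2.17, 1.45, 2.65 and 2.24 in rats 2 to 5. How far up the tendon each middle segment began is not recorded in the labels, and its part in these differences was not tested.

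The number of calls rested in part on rat 4. Without rat 4 the count was 1849, and without its distal library alone 2266, against 2733 to 3047 without any other rat. Of the 3731 genes, 1638 (43.9%) were also called in each of the 5 fits that left out 1 rat, 776 of them higher and 862 lower in the middle. These included 278 of the 577 genes at least 2-fold higher and 324 of the 470 at least 2-fold lower. Without the rat block 2303 genes were called, of which 2282 were among the 3731.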

How the data were processed

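Raw read counts per Ensembl rat gene were deposited by the authors, 1 column per region and rat, with no normalization. The submitters' processing notes list the rn6 build and, as tools, featureCounts 2.0.1, SAMtools 1.9, HISAT2 2.2.1 and fastp 0.19.10. Their options, the annotation and the strand setting are not stated there, so the handling of reads from overlapping, antisense or near-identical genes is unknown. Poly(A) RNA libraries were made with a strand-specific kit, per the labels' protocols.

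The counts were fitted with edgeR 4.0.16 (R 4.3.3) over all 15 libraries, with region and rat as terms, TMM scaling and robust quasi-likelihood dispersions. The filter filterByExpr, grouped by region, left 15037 of 32883 genes, which held at least 99.9% of each library's counts. P-values were adjusted by Benjamini-Hochberg over those genes, with a threshold of 0.05. CPM values are TMM-scaled, log2 CPM used a prior count of 2, and shares are percent of a library's raw total. The model was tested on simulated data. Alternatives were fits without the block, with the 10 middle and distal libraries only, other scaling, filters and tools (DESeq2 1.42.0, limma 3.58.1), thinning and left-out rats or libraries.

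Same-numbered libraries come from the same animal, per the labels. Deviations of the middle and distal libraries of a rat from their region means correlated at r = 0.212 to 0.328 over genes in the 5 rats. No 2 of the 10 libraries were copies: over 45 pairs the lowest chi-square was 20.4 times its degrees of freedom. The lists of tendon, cartilage, cell type and pathway genes that had been set could not be applied without symbols, and 2 genes in each direction are named by the rule given for that case. The comparison and the rules were chosen with earlier results of these data known.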

Additional observations from a re-analysis of the deposited data

Results flagged for a closer look

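A screen for single libraries lying far from the other 4 of their region covered 38 sets of values and found 1. Chance gives about 5% of sets, so the number found is not beyond chance. It was the middle library of rat 5. Measured over all tested genes, it lay 0.745 log2 units from the average of the remaining middle libraries, and each of those lay between 0.445 and 0.521. Without it the comparison with distal tendon called 2917 genes, of which 2729 were among the 3731 called with it (edgeR quasi-likelihood test, adjusted p under 0.05). The cause of its distance was not tested.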

How the results depend on the processing

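Thinning and the joint loss of the middle libraries of rats 1 and 5 were chosen after seeing the data. The count of 3731 stayed within 1.5 times in 21 of 26 settings, and no called gene that was shared with an alternative changed direction in it. Such genes passed in fits that share most or all of their libraries, so the kept direction adds no support. With no replicate block, 2303 genes passed (1159 higher and 1144 lower in the middle). Of the 4 named genes, ENSRNOG00000025757 and ENSRNOG00000061160 did not pass without the block (edgeR adjusted p = 0.0574 and 0.0558), and the other 2 did. Without TMM scaling 975 genes were lower. With a 2-fold minimum 1047 genes passed (577 higher, 470 lower). Without the middle libraries of rats 1 and 5 the counts were 1961 in all, 865 higher and 1096 lower. With a rat or library left out the count ran from 1849 to 3512, that of higher genes from 907 to 1919, that of lower genes from 942 to 1633 and that of genes changed at least 2-fold from 581 to 1198. The lowest values were all without rat 4. The cause of these shifts was not tested. DESeq2 called 4433 genes, limma 3903 and the thinned counts 3434. No named gene changed sign in 25 settings, but they were chosen for having the same sign in all 5 rats, so this adds no support. Low depth limits calls under 1 CPM, where few counts lie behind each value.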
